A study of Homo sapiens with 24 samples.

Results

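The genes described here are the protein-coding zinc finger genes of human chromosome 19, taken as every protein-coding gene of that chromosome in the GENCODE annotation of hg38 whose symbol is ZNF followed by a number, with or without trailing letters. There were 246 of them among the 60605 genes of the count table, and 235 had enough reads to be tested. A member is said to have passed where its p-value, adjusted over all tested genes, was under 0.1. They were measured by PRO-seq, in which polymerases that are engaged on chromatin extend their RNA by a biotin-labelled nucleotide, so that the reads count transcription in progress and not stored RNA. The cells were T47D, a luminal, estrogen receptor-positive breast cancer line, in which a degron tag had been inserted into the endogenous gene of TRPS1, a repressor with a GATA-type zinc finger. Each of the 6 groups had 4 libraries. Clone 28, Clone 35 and Clone 39, each 1 clonal line, were treated for 90 minutes with 0.1% DMSO or with 100 nM dTAG-13, a small molecule that brings the tagged protein to a ubiquitin ligase. Every group carried the tag, so the DMSO libraries are vehicle controls of tagged cells and not of the parental line. Because the degron removes protein, the reads of the tagged gene do not check its depletion.

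Most zinc finger genes of chromosome 19 encode proteins with a KRAB domain at one end and a long row of zinc fingers at the other. The fingers read DNA, often in transposable elements, and the KRAB domain binds TRIM28, which brings the histone methyltransferase SETDB1 and heterochromatin protein HP1. The genes arose by repeated tandem duplication and lie in clusters, where neighbouring members resemble each other in sequence.

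The coding sequences of the annotated main transcripts showed this make-up. All 246 members held at least 1 zinc finger of the kind with a pair of cysteines and a pair of histidines, with a median of 12 and a range from 1 in *ZNF414* and *ZNF428* to 36 in *ZNF208*. Among the 263 genes of the same naming pattern on other chromosomes the median was 9 fingers. A strict pattern for the KRAB box was found in 153 members (62.2%) and in 66 of the genes on other chromosomes (25.1%). A strict pattern can miss diverged boxes. Members lay in 16 clusters when a gap of more than 1 Mb began a new one. The largest were the sixteenth, with 59 members near the end of the long arm, the fifteenth, with 39 between 51571283 and 53580269, the fifth, with 37 between 19668796 and 24129968, the ninth, with 26, and the third, with 25.

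The 250 bases before the RefSeq start were read for 216 members and were identical to hg38 in all 216. They had a median GC content of 59.6% and a median ratio of observed to expected CpG of 0.733, against 62.4% and 0.742 over 15333 promoters of protein-coding genes, 62.4% and 0.801 over 214 of zinc finger genes on other chromosomes, and 58% and 0.558 over 35116 of all genes. The letters CGCG stood in 142 of them (65.7%, against 61.4% of protein-coding promoters, 73.4% of those of zinc finger genes on other chromosomes and 46.4% of all promoters). The motif of GATA factors was searched only in the form AGATAA, on either strand, and that form was present in 11 (5.09%, against 6.76% of protein-coding and 9.17% of all promoters). AGGTCA, a core of estrogen receptor sites, was present on either strand in 21 (9.72%, against 10.1% and 12.1%). The 6 promoters below belong to the members on which the dTAG-13 and clone results turn, all in the fifteenth cluster of hg38 chromosome 19. They run 5′ to 3′ on the strand of the gene, at chr19:51887952-51888201 (minus strand) for *ZNF577*, chr19:51927222-51927471 (plus) for *ZNF613*, chr19:51986841-51987090 (minus) for *ZNF350*, chr19:52048839-52049088 (minus) for *ZNF432*, chr19:52139939-52140188 (minus) for *ZNF616* and chr19:51571033-51571282 (plus) for *ZNF175*. Capitals mark ATGGCNGC on either strand, a sequence that was noticed in these promoters after they had been chosen.
ZNF175: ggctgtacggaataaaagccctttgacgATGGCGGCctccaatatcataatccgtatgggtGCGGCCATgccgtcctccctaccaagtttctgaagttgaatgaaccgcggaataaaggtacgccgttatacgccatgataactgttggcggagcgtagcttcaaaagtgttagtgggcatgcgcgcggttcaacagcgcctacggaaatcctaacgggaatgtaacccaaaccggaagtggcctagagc
ZNF577: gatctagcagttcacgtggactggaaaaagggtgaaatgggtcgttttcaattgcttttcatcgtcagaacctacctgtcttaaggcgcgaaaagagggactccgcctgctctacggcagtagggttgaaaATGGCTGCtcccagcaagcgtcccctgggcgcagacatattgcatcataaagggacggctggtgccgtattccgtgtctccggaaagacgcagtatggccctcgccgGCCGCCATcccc
ZNF613: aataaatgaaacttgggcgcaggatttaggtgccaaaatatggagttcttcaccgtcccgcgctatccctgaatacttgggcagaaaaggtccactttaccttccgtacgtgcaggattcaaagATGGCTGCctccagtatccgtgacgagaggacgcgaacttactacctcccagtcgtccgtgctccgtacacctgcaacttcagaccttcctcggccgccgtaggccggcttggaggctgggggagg
ZNF350: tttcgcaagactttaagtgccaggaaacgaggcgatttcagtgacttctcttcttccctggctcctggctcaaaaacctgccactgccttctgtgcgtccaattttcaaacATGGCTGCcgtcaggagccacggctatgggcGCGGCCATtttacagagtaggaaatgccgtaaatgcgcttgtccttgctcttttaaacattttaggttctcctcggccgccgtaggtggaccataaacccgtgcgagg
ZNF432: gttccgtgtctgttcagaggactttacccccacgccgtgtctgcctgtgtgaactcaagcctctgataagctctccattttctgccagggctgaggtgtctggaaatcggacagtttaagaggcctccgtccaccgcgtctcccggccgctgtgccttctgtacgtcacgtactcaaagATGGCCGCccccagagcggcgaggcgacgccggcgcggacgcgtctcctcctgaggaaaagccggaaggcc
ZNF616: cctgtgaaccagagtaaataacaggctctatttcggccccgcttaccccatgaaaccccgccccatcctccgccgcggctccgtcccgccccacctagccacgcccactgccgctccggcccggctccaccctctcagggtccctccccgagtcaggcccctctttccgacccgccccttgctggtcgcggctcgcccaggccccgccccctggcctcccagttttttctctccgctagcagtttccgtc

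ATGGCNGC stood in the first 5 of these promoters and not in that of *ZNF616*. Over all members it was found in 14 of 216 (6.48%), against 4.44% of protein-coding promoters, 5.61% of those of zinc finger genes on other chromosomes and 4.29% of all promoters. Of those 14 members, 7 were neighbours in the fifteenth cluster, namely *ZNF175*, *ZNF577*, *ZNF613*, *ZNF350*, *ZNF615*, *ZNF614* and *ZNF432*. None of the 6 promoters held AGATAA or AGGTCA. Other forms of the GATA motif were not searched, and TGATAA, which is such a form, stands in the printed promoters of *ZNF175* and *ZNF432*. The RefSeq start of *ZNF432* lay 46900 bases inside the annotated gene and that of *ZNF577* lay 2999 bases inside it, so these windows are not at the most upstream annotated start.

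The 24 libraries held between 3226718 and 9575803 counts (median 5042122). The members took between 0.891% and 1.01% of them. Luminal markers (*ESR1*, *GATA3*, *FOXA1*, *KRT8*, *KRT18*, *KRT19*, *PGR* and *SPDEF*) summed to between 153 and 191 CPM (counts scaled to the library total after TMM adjustment) per kb in every library. Basal markers summed to at most 0.303 CPM per kb and endothelial markers to at most 0.0545, and mesenchymal markers to between 0.694 and 1.17. *KRT5*, *KRT14*, *COL1A2* and *VIM* had at most 13 counts in any library, while *COL1A1* had 35 to 108 and *FN1* 23 to 98. The basal marker *TP63* had 22 to 192 counts, at a mean of 0.0516 CPM per kb. The 3 leukocyte markers summed to between 2.73 and 4.68 CPM per kb in Clone 39 and between 4.97 and 7.77 in the other clones, almost all from *CD68*, with *PTPRC* and *CD3E* averaging 0.0231 and 0.0678.

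The members were transcribed at levels that lay close together. Their level, as CPM per kb of annotated gene and as the mean of the 3 DMSO groups, had a median of 1.36 over the 235 tested members, and the middle 90% ran from 0.453 to 3.34. The median was 1.32 for 246 tested zinc finger genes of other chromosomes, with the middle 90% from 0.0885 to 5.35. For 908 other protein-coding genes of chromosome 19 it was 1.32, with the middle 90% from 0.123 to 5.76. The highest member was *ZNF552*, at 14.1 ± 1.03 CPM per kb (SD over 12 DMSO libraries), about 10 times the median. *ZNF580* (7.37), *ZNF581* (6.77), *ZNF296* (4.47) and *ZNF587* (4.43) followed. *ZNF580* and *ZNF581* overlap on the same strand, so their reads could not be told apart. The lowest tested level was that of *ZNF536*, a brain gene that restrains neuron differentiation, at 0.0111 CPM per kb. *ZNF208* (0.0569), *ZNF541* (0.0614), a meiosis gene of the germ line, *ZNF98* (0.185) and *ZNF714* (0.192) were next. The 11 members with too few reads to test were *ZNF560*, *ZNF257*, *ZNF723*, *ZNF728*, *ZNF404*, *ZNF534*, *ZNF677*, *ZNF471*, *ZNF835*, *ZNF154* and *ZNF132*, with median counts between 1 and 6.5 per library.

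The first comparison asked which members were transcribed differently 90 minutes after dTAG-13, with the 3 clones together. *ZNF577*, *ZNF616* and *ZNF613* were higher with dTAG-13, by 0.24 to 0.26 on the log2 scale, and no member was lower. These 3 were 1.28% of the tested members, against 0.551% of all 22326 tested genes (0.358% for higher alone). When the 12 pairs of libraries collected together entered the model as a replicate block, 7 members were higher and none lower (2.98%, against 2.33% of all genes 1.4% for higher alone and 0.932% for lower alone). The 7 were *ZNF577*, *ZNF613*, *ZNF432*, *ZNF616*, *ZNF350*, *ZNF91* and *ZNF675*. Over all 235 members the median log2 difference was -0.0034, and 110 (46.8%) were above 0, against a median of -0.0018 and 49% over all genes.

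*ZNF577* (ENSG00000161551, chr19:51804816-51890950, minus strand, 7 fingers) was the member with the smallest p-value. In Clone 28 the DMSO libraries held 113, 100.3, 95.3 and 83.1 CPM in the order of their replicate numbers, and the dTAG-13 libraries with the same numbers 136, 122, 119 and 109. In Clone 35 they held 119.7, 116, 112 and 101 CPM with DMSO and 138, 120.1, 120.04 and 127 with dTAG-13. In Clone 39 they held 83.4, 68.2, 69.5 and 77.3 CPM with DMSO and 90.4, 96.03, 95.6 and 88.3 with dTAG-13. All 12 pairs were higher with dTAG-13, and in Clone 35 and Clone 39 the lowest dTAG-13 library was above the highest DMSO library. The log2 difference was 0.26 (SE 0.0459, adjusted p = 0.0029 from edgeR, with p-values adjusted by Benjamini-Hochberg, and 4.07e-07 with the block). Its reads overlap those of 4 other annotated genes on the same strand.

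*ZNF616* (ENSG00000204611, chr19:52113091-52139938, minus strand, 21 fingers) held 35.3, 34.4, 37.9 and 38.7 CPM with DMSO and 58.3, 45.5, 48.5 and 45.7 with dTAG-13 in Clone 28. In Clone 35 the values were 39.8, 38.9, 44.7 and 47.01 and 44.5, 44.99, 46.9 and 50.2. In Clone 39 they were 33.3, 27.5, 32.2 and 35.2 and 36.4, 43.5, 31.9 and 36.04. Its groups did not overlap in Clone 28, and 11 of 12 pairs were higher with dTAG-13. The log2 difference was 0.25 (SE 0.0576, adjusted p = 0.0424 from edgeR, and 0.00285 with the block). A gene of a long non-coding RNA (chr19:52130548-52171533) covers the start of *ZNF616* on the same strand, so reads there could not be told apart. The log2 difference of that gene was 0.06 (adjusted p = 0.966 from edgeR).

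*ZNF613* (ENSG00000176024, chr19:51927147-51948759, plus strand, 12 fingers) overlaps no other annotated gene. It held 95.5, 90.7, 80.04 and 70.5 CPM with DMSO and 116, 104, 95.03 and 89.3 with dTAG-13 in Clone 28. In Clone 35 the values were 91.8, 87.1, 78.1 and 73.97 and 107, 90.8, 93.5 and 81.5. In Clone 39 they were 71.2, 59.5, 54.5 and 51.7 and 66.5, 78.5, 79.6 and 69.1. The groups overlapped in all 3 clones, but 11 of 12 pairs were higher with dTAG-13. The log2 difference was 0.24 (SE 0.0608, adjusted p = 0.0848 from edgeR, and 2.7e-05 with the block). Without the block its call was lost in 18 of the 24 fits that left out 1 library. It held only without DMSO replicate 1 of any clone, DMSO replicate 2 of Clone 35, or dTAG-13 replicate 4 of Clone 28 or Clone 35, with adjusted p-values from 0.0276 to 0.178 over all 24 fits.

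*ZNF350* and *ZNF432* passed with the block and, without it, with DESeq2 (adjusted p = 0.0536 and 0.0632), with library totals in place of TMM (0.0655 and 0.0662, edgeR) and with no filter on low counts (3.63e-05 and 0.00452, edgeR). *ZNF350* (chr19:51964340-51986856, minus strand), which encodes a repressor known as a partner of BRCA1, held from 50.1 to 69.9 CPM with DMSO and from 72.1 to 80.98 with dTAG-13 in Clone 28. It held from 55.2 to 90.1 and from 76.1 to 90.9 CPM in Clone 35, and from 43.1 to 53.7 and from 44.8 to 57.3 in Clone 39. It was higher in 12 of 12 pairs, by 0.26 (SE 0.0726, adjusted p = 0.168 from edgeR, and 0.00319 with the block). *ZNF350* and *ZNF577* were the only tested members higher in all 12 pairs, which held for 0.363% of all genes. *ZNF432* (chr19:52031378-52095738, minus strand) was higher in 10 of 12 pairs, with a log2 difference of 0.19 (SE 0.0506, adjusted p = 0.12 from edgeR, and 0.000653 with the block). *ZNF432* and *ZNF841* overlap on the same strand, so reads of the pair could not be told apart. Among the edgeR fits without the block that left out 1 library, *ZNF350* passed when DMSO replicate 1 of Clone 35 (adjusted p = 0.0168), DMSO replicate 1 of Clone 39 (0.0775) or dTAG-13 replicate 4 of Clone 39 (0.0901) was left out. In the same fits *ZNF432* passed when DMSO replicate 1 of Clone 28 (0.0979), dTAG-13 replicate 4 of Clone 35 (0.0615), or DMSO replicate 4 (0.0750), dTAG-13 replicate 3 (0.0355) or dTAG-13 replicate 4 (0.0984) of Clone 39 was left out.

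**Figure D1:**
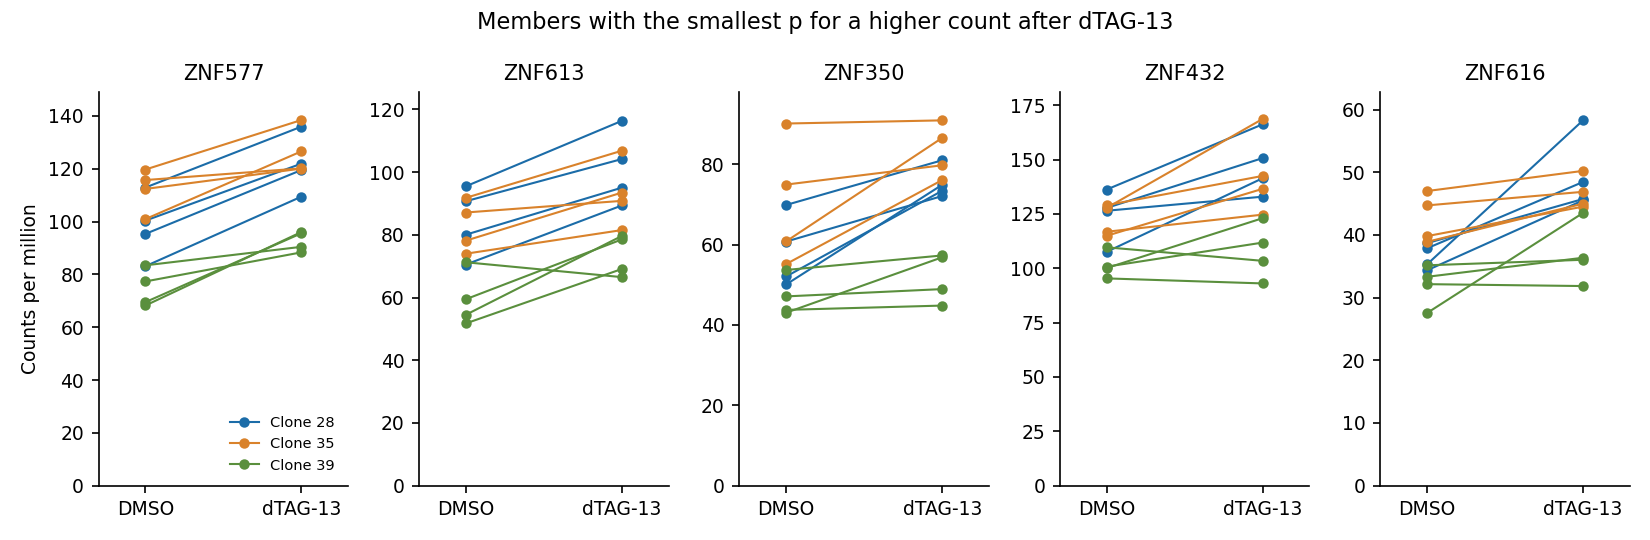
CPM (y axis, from 0) of 5 members with DMSO and with dTAG-13, with 1 line for each of the 12 pairs of libraries that share a clone and a replicate number, coloured by clone. All 12 lines slope upward for ZNF577 and ZNF350, 11 for ZNF613 and ZNF616 and 10 for ZNF432, and the Clone 39 libraries lie lowest for ZNF577, at 68.2 to 83.4 CPM with DMSO.

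These 5 members are near neighbours in the fifteenth cluster. Between *ZNF175* and *ZNF616* (chr19:51571283-52139938, 569 kb) lie 10 tested members, and all 10 had a log2 difference above 0, from 0.12 to 0.26 with a median of 0.18. Among the 27 other tested members of the cluster 10 were above 0, with a median of -0.028 and a range from -0.091 to 0.11, and none passed. The limits of that stretch were chosen after the values were seen, so the counts describe it and test nothing. By clone, all 10 members were above 0 in Clone 28 (median 0.27), 9 in Clone 35 (median 0.15) and 8 in Clone 39 (median 0.095). In the other clusters no member passed without the block.

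Members of the stretch that did not pass were *ZNF649* (0.12), *ZNF615* (0.12), *ZNF614* (0.12), *ZNF841* (0.18) and *ZNF175* (0.13), with adjusted p-values from 0.747 to 0.921 from edgeR, and from 0.201 to 0.574 with the block. Next to *ZNF577* lie genes of another family, the formyl peptide receptors of innate immune cells. *FPR1* lies just downstream of *ZNF577* on the same strand, and its log2 difference was 0.69 (SE 0.131, adjusted p = 0.00649 from edgeR, 11 of 12 pairs higher) at a mean of 7.76 CPM. *FPR3*, on the opposite strand, had 0.49 (SE 0.117, adjusted p = 0.0564 from edgeR, 11 of 12 pairs) at 7.88 CPM. *FPR2*, within the span of *FPR1* and on its opposite strand, did not pass in either fit. With the block it had -0.30 (SE 0.268, adjusted p = 0.815 from edgeR, 4 of 12 pairs higher) at 5.41 CPM. *ZNF350-AS1*, which overlaps *ZNF350* on the opposite strand, had 0.32 (adjusted p = 0.426 from edgeR, and 0.00385 with the block). Downstream of the stretch, *ZNF836* had -0.03, *PPP2R1A*, a phosphatase subunit, had 0.02 and *ZNF766* had 0.11, and none of these passed. The genes outside the family were singled out after their values were seen.

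**Figure D2:**
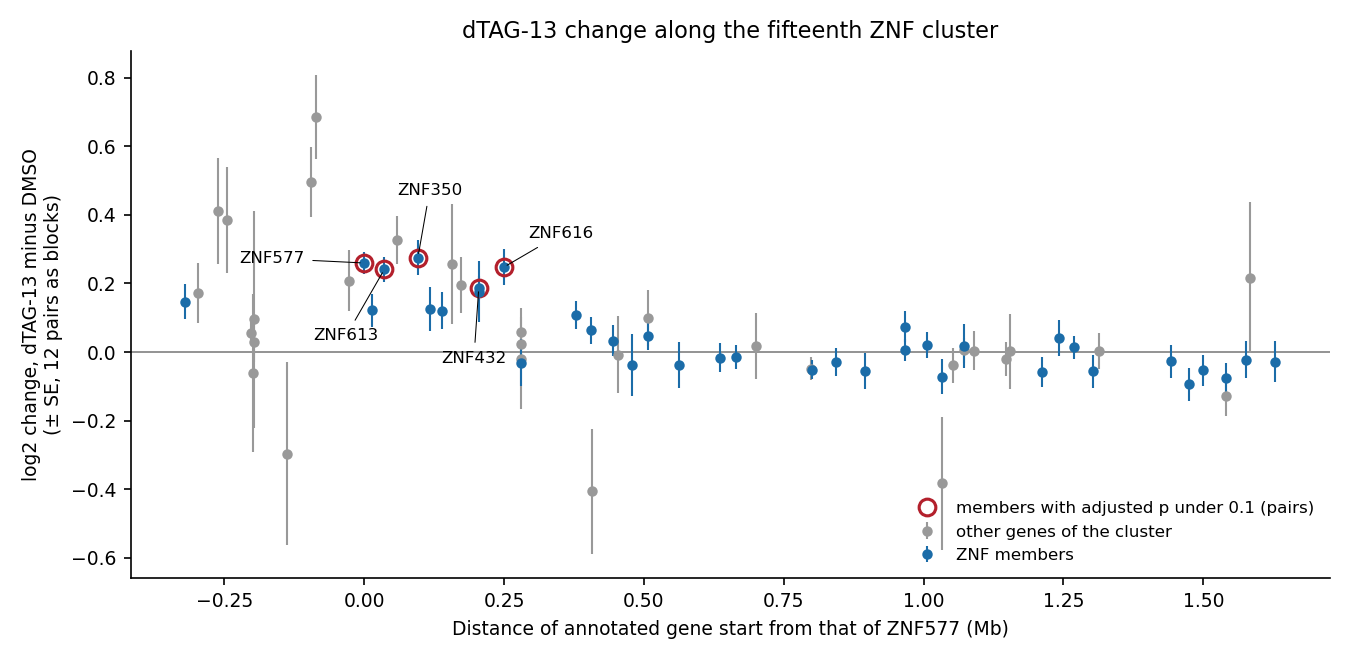
Log2 difference between dTAG-13 and DMSO with the 12 pairs as blocks (y axis, ± SE) of each tested gene of the fifteenth cluster against the distance of its annotated start from that of ZNF577 (x axis, Mb). Members are blue, other genes grey, and red rings mark the 5 members with adjusted p under 0.1, which lie within the stretch of 569 kb, while the members to its right scatter around 0 between -0.095 and 0.11.

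*ZNF91* and *ZNF675*, in the fifth cluster, passed with the block and not without it when all libraries were fitted, and by a smaller amount. *ZNF91*, which encodes a repressor of retrotransposons of the SVA and L1 families in primates, held 235 to 341 CPM with DMSO in Clone 28 and Clone 35 and from 193 to 235 in Clone 39. Its log2 difference was 0.11 (SE 0.0251, adjusted p = 0.00532 with the block, and 0.899 without, from edgeR), and 11 of 12 pairs were higher. *ZNF675*, a gene whose product inhibits TRAF6 signalling, had 0.10 (SE 0.0303, adjusted p = 0.0972 with the block, and 0.542 without, from edgeR). On the lower side no member passed in either fit. The smallest p-values without the block were those of *ZNF549* (-0.11), *ZNF552* (-0.07), *ZNF208* (-0.29), *ZNF671* (-0.16) and *ZNF441* (-0.12), with adjusted p-values from 0.689 to 0.863 from edgeR. With the block they were those of *ZNF552*, *ZNF549*, *ZNF208*, *ZNF155* (-0.11) and *ZNF525* (-0.09), with adjusted p-values from 0.3 to 0.512.

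The mean dTAG-13 difference over the clones was above 0 in each replicate number for all 5 called members of the fifteenth cluster. These members were chosen over the same pairs, so these means describe them and test nothing. For *ZNF577* the mean was 0.20, 0.28, 0.29 and 0.30 in numbers 1 to 4, for *ZNF616* 0.33, 0.42, 0.14 and 0.12, and for *ZNF613* 0.13, 0.22, 0.35 and 0.30. For *ZNF350* it was 0.11, 0.13, 0.47 and 0.36, and for *ZNF432* 0.28, 0.23, 0.20 and 0.027. Without the block, 0 members passed when Clone 28 was left out (0.00458% of all genes) or Clone 39 (0.169%), and 2, *ZNF577* and *ZNF616*, passed without Clone 35 (0.171%). The log2 difference of *ZNF577* was 0.23, 0.31 and 0.24 without Clone 28, Clone 35 and Clone 39 (adjusted p = 0.180, 0.021 and 0.114 from edgeR), against 0.26 with all clones. In single clones 0 members passed. Of all genes, 0.0537% passed in Clone 28 alone (0.0448% higher and 0.00896% lower) and 0% in the other clones. With the block, 4 members passed without Clone 28 (0.81% of all genes), 6 without Clone 35 (1.66%) and 8 without Clone 39 (1.75%), fits that were added after the data had been seen. *ZNF577*, *ZNF613*, *ZNF350* and *ZNF432* were among these members each time, while *ZNF616* did not pass without Clone 28 (log2 difference 0.16, adjusted p = 0.417 with the block from edgeR). The filter was run again in the fits without a clone, which tested 21847, 21578 and 21874 genes without Clone 28, Clone 35 and Clone 39.

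Whether the dTAG-13 difference varied between clones was tested as an interaction. No member passed (0 of 235, and 0% of all genes), and with the block none did either. At an unadjusted p under 0.05 stood 2 members and 407 of all genes, and DESeq2 also called 0 members. The members with the smallest p-values were *ZNF526*, at 0.04, -0.30 and 0.34 in Clone 28, Clone 35 and Clone 39, *ZNF836*, at 0.19, -0.05 and -0.27, and *ZNF610*, at 0.04, 0.15 and -0.13 (unadjusted p = 0.00804, 0.0457 and 0.0617 from edgeR).

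The next comparisons set each clone against the mean of the other clones in the DMSO libraries. Members differed between clones, and in Clone 39 more of them passed as lower than as higher. In Clone 39, 41 members passed, 7 higher and 34 lower (17.4%, against 28.1% of all genes, which were 13.1% higher and 15% lower). The 34 of 235 lower members were near the share of all genes, while the 7 higher members were below theirs. In Clone 28, 28 members passed, 22 higher and 6 lower (11.9%, against 17.1% of all genes, 9.67% higher and 7.4% lower). In Clone 35, 14 passed, 9 higher and 5 lower (5.96%, against 12.8% of all genes, 7.92% higher and 4.86% lower). In each clone the share of members called was below that of all genes. The median log2 difference of the members was -0.052 in Clone 39, with 86 of 235 above 0, while it was 0.0026 over all genes. It was 0.032 in Clone 28 and 0.015 in Clone 35. In all, 52 members passed in at least 1 contrast, and the 3 contrasts share libraries. Each clone is 1 clone, so these p-values measure the spread between its collections. The leukocyte marker sum, almost all from *CD68*, was lowest in Clone 39, as given above. Each group is a clonal T47D line, and the part of this sum in the differences was not tested.

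The largest difference was that of *ZNF175* (ENSG00000105497, chr19:51571283-51592510, plus strand, 13 fingers), whose product is known to repress the HIV-1 promoter in macrophages. With DMSO its libraries held 61.9, 65.99, 49.9 and 55.4 CPM in Clone 28, 81.3, 70.4, 63.6 and 57.9 in Clone 35 and 23.5, 23.2, 22.3 and 19.8 in Clone 39. With dTAG-13 they held 73.1, 67.2, 73.5 and 70.05 CPM in Clone 28, 85.3, 79.3, 70.9 and 63.00 in Clone 35 and 17.4, 24.2, 17.8 and 21.3 in Clone 39. All 8 libraries of Clone 39 lay below those of the other clones, and the DMSO means were 58.3 ± 7.09, 68.3 ± 10.05 and 22.2 ± 1.7 CPM (SD, n = 4) in Clone 28, Clone 35 and Clone 39. The log2 difference of Clone 39 was -1.50 (SE 0.105, adjusted p = 4.64e-13 from edgeR) in the DMSO libraries and -1.84 in the dTAG-13 libraries. *ZNF175* also passed as higher in Clone 35 (0.92) and in Clone 28 (0.59), contrasts that contain the low Clone 39.

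In Clone 39, 11 members had all 4 DMSO libraries below the 8 of the other clones (4.68% of those tested, against 7.37% of all genes), and 3 had all 4 above (1.28%, against 5.47%). After *ZNF175*, the largest of those lower were *ZNF114* (-0.62), *ZNF671* (-0.56), *ZNF528* (-0.49) and *ZNF222* (-0.46), with adjusted p-values from 2.93e-05 to 0.0277 from edgeR. *ZNF528* held 41.5, 34.7, 36.5 and 34.6 CPM in Clone 39 and from 45.9 to 58.2 in the other clones. *ZNF671* held 8.58, 8.24, 8.72 and 8.39 CPM, with the other clones from 9.54 to 15.1, a low level at which 1 library had as few as 27 counts. In the dTAG-13 libraries *ZNF175*, *ZNF671* and *ZNF528* passed again, while *ZNF114* had -0.27 and *ZNF222* had -0.13 (adjusted p = 0.294 and 0.629 from edgeR).

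The 3 members with all 4 Clone 39 libraries above the others were *ZNF229* (0.45, SE 0.119), *ZNF260* (0.23, SE 0.0888) and *ZNF254* (0.13, SE 0.0459), with adjusted p-values of 0.00428, 0.0572 and 0.0408 from edgeR. *ZNF229* held 17.96, 19.6, 17.4 and 22.6 CPM, and the other clones from 10.8 to 17.4. The call of *ZNF254* was lost without DMSO replicate 1 of Clone 39 (adjusted p = 0.246 from edgeR). That of *ZNF260* was lost without DMSO replicate 2 of Clone 28 (0.124) or without DMSO replicates 1, 2 or 4 of Clone 39 (0.131, 0.105 and 0.119). In the dTAG-13 libraries *ZNF229* passed again and the other two did not (adjusted p = 0.185 for *ZNF254* and 0.774 for *ZNF260*, from edgeR).

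In Clone 28 the largest differences among members whose libraries did not overlap were those of *ZNF541*, *ZNF439* and *ZNF85* on the higher side. *ZNF439* (chr19:11848726-11883750, plus strand, 11 fingers) held 28.3, 32.3, 31.8 and 33.4 CPM in Clone 28, 20.5, 20.5, 23.1 and 18.2 in Clone 35 and 20.6, 18.02, 20.4 and 18.98 in Clone 39. Its log2 difference in Clone 28 was 0.65 (SE 0.0841, adjusted p = 6.33e-07 from edgeR), with no overlap in the dTAG-13 libraries either. *ZNF541* had 0.79 (SE 0.215, adjusted p = 0.0106 from edgeR), from libraries of 7 to 34 counts. *ZNF85* had 0.32 (SE 0.0809, adjusted p = 0.00569 from edgeR). On the lower side, *ZNF579* held 1.49, 2.09, 2.15 and 2.75 CPM, from libraries of 6 to 39 counts, and had -0.83 (SE 0.238, adjusted p = 0.016 from edgeR). *ZNF8* had -0.28 (SE 0.101, adjusted p = 0.0652 from edgeR). The call of *ZNF8* was lost without DMSO replicates 2 or 3 of Clone 28 (adjusted p = 0.157 and 0.208), replicates 1 or 3 of Clone 35 (0.105 and 0.111) or replicate 3 of Clone 39 (0.106). Neither *ZNF579* nor *ZNF8* passed in the dTAG-13 libraries (adjusted p = 0.266 and 0.795 from edgeR). In Clone 28, 4 members lay wholly above and 3 wholly below (1.70% and 1.28%, against 1.92% and 1.78% of all genes).

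In Clone 35, 1 member lay wholly above the other clones and none below (0.426% and 0%, against 1.25% and 0.905% of all genes). It was *ZNF616*, at 39.8, 38.9, 44.7 and 47.01 CPM with DMSO, with a log2 difference of 0.32 (SE 0.0817, adjusted p = 0.00816 from edgeR). In the dTAG-13 libraries the difference was 0.13 (adjusted p = 0.407 from edgeR). Without DMSO replicate 1 of Clone 35 only 7 members passed in this clone. The size of the called differences was modest in every clone, with a median of 0.29 in Clone 28, 0.30 in Clone 35 and 0.31 in Clone 39 regardless of sign.

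**Figure D3:**
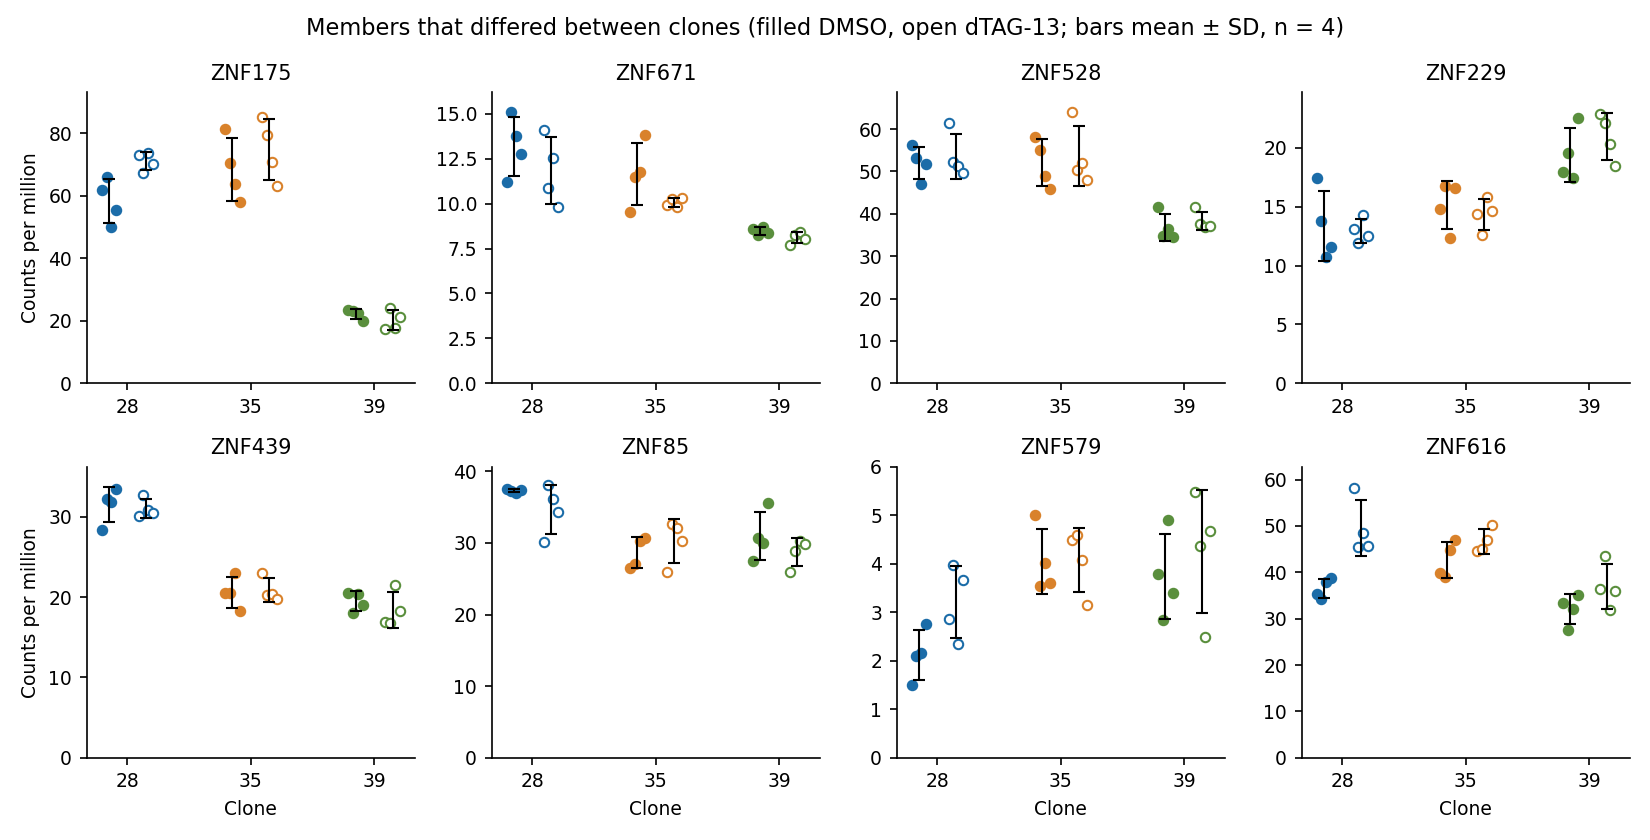
CPM (y axis, from 0) of 8 members in each clone (x axis), with filled points for the 4 DMSO libraries, open points for the 4 dTAG-13 libraries and bars for mean ± SD. The 8 Clone 39 libraries of ZNF175 lie at 17.4 to 24.2 CPM, below every library of the other clones, and the 8 Clone 28 libraries of ZNF439 lie at 28.3 to 33.4 CPM, above every library of the other clones.

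Called members were unevenly spread over the clusters, which was described and not tested. Of all genes, 15% passed as lower and 13.1% as higher in Clone 39. In Clone 35, 7.92% of all genes passed as higher and 4.86% as lower, and in Clone 28, 9.67% and 7.4%. In the fifteenth cluster 13 members passed as lower in Clone 39 and none as higher, and 32 of its 37 tested members were below 0 (median -0.12). The 9 tested protein-coding neighbours within its limits had a median of -0.088, with 2 lower. In the same cluster 7 members passed as higher in Clone 35 and 5 as higher in Clone 28, with none lower in either. Of its 9 neighbours 3 passed as higher in Clone 35 and 2 in Clone 28, with none lower. The neighbours had a median of 0.076 in Clone 35, against 0.065 for the members. In Clone 28 the neighbour median was -0.0095, against 0.094 for the members. The stretch from *ZNF175* to *ZNF616* held 7 of the 13 members lower in Clone 39, and all 10 of its members were below 0 there (median -0.34). The 5 members of the stretch that passed for dTAG-13 with the block also passed as lower in Clone 39, a contrast that shares DMSO libraries with the first, with -0.48 for *ZNF577*, -0.49 for *ZNF613*, -0.43 for *ZNF350*, -0.30 for *ZNF616* and -0.28 for *ZNF432*. In the fifth cluster 9 members passed as higher in Clone 28 and none as lower, and 27 of its 34 tested members were above 0 (median 0.15). In the sixteenth cluster 8 of 55 tested members passed as lower in Clone 39, near the share of all genes. There 2 passed as higher, and the median was near 0 (-0.010).

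**Figure D4:**
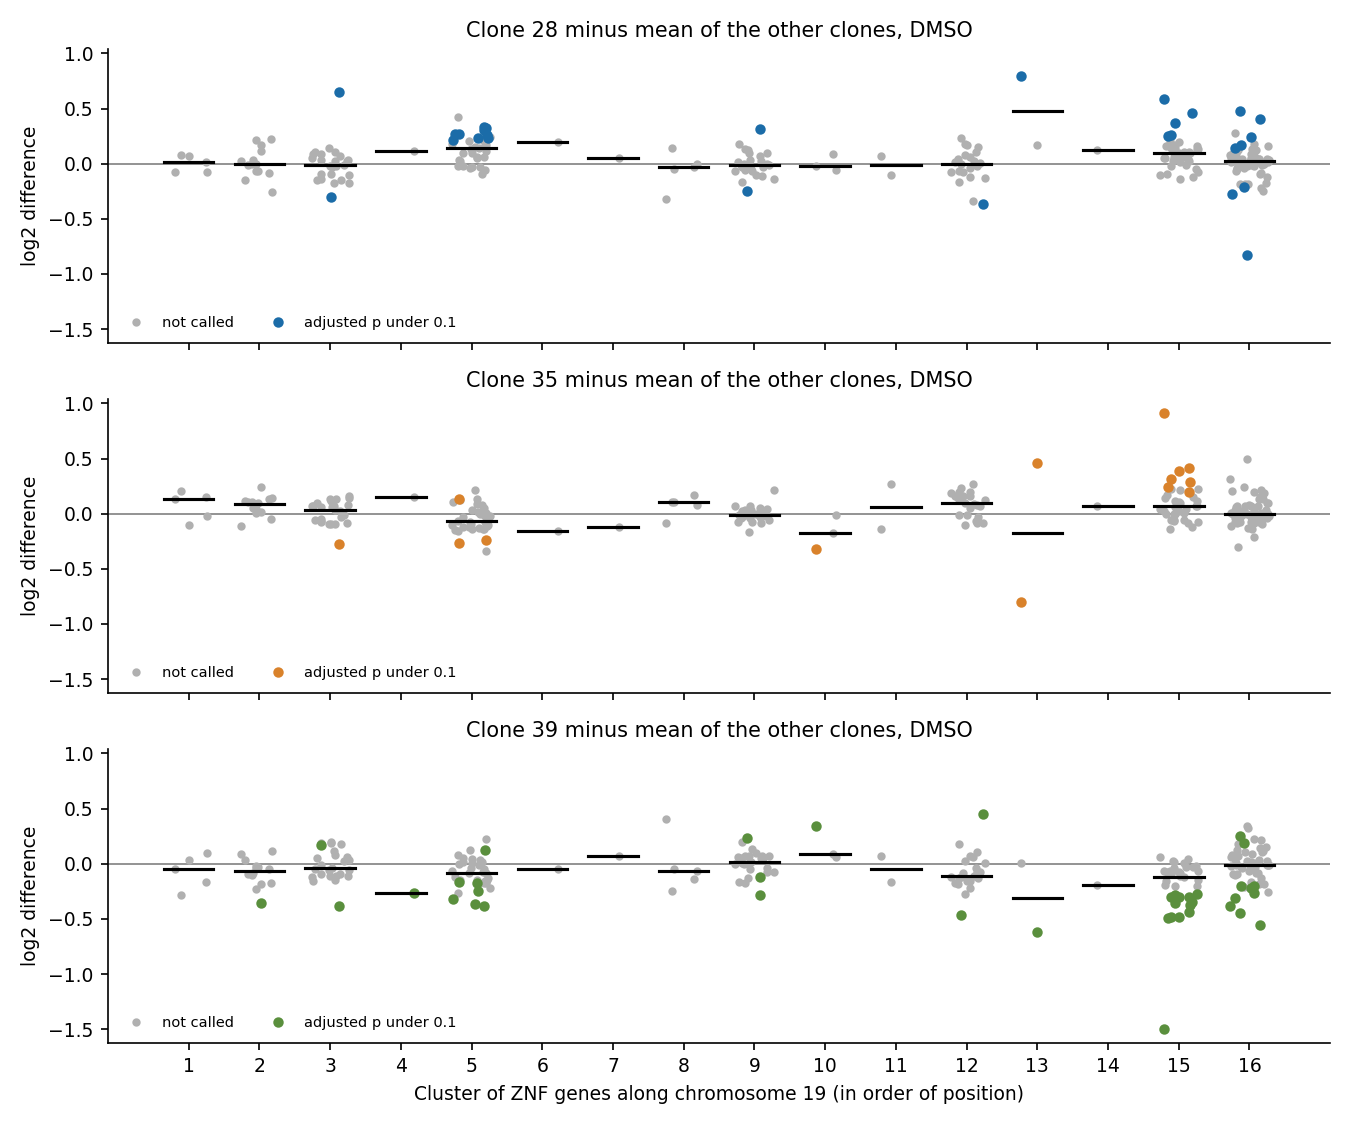
Log2 difference of each tested member between a clone and the mean of the other clones with DMSO (y axis, 1 panel per clone) against its cluster in order along chromosome 19 (x axis). Coloured points have adjusted p under 0.1 and black bars are cluster medians, and the fifteenth cluster holds 13 coloured points below 0 in Clone 39 and 7 above 0 in Clone 35. Of all genes, 15% passed as lower in Clone 39 and 7.92% as higher in Clone 35.

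The called clone differences kept their sign in the dTAG-13 libraries, which are other libraries of the same clones. Of the members called with DMSO, all 28 in Clone 28, all 14 in Clone 35 and all 41 in Clone 39 had the same sign with dTAG-13, and 18, 5 and 27 of them passed again. In Clone 35 most of the called members thus did not pass again. The share of all called genes that passed again is not given here. The contrasts between the dTAG-13 groups came from the same fit of the 6 groups, so the DMSO libraries also set its spread and scaling. In these contrasts 28 members passed in Clone 28, 27 of them higher, and 10 in Clone 35, 6 of them higher. In Clone 39, 50 passed, 43 of them lower. Of all genes, 17.9% passed there in Clone 28 (10.2% higher and 7.66% lower), 11.9% in Clone 35 (7.61% higher and 4.32% lower) and 27% in Clone 39 (12.2% higher and 14.7% lower). With the shared replicate number as a block, 53 members passed in Clone 28, 31 in Clone 35 and 64 in Clone 39 (22.6%, 13.2% and 27.2%, against 26.1%, 20.3% and 35.9% of all genes), and these held all those called without it. The split with the block was 43 higher and 10 lower in Clone 28 (14.1% and 11.9% of all genes), 21 and 10 in Clone 35 (11.5% and 8.82%) and 10 and 54 in Clone 39 (17.1% and 18.8%). With library totals in place of TMM, the split of called members was 19 higher and 9 lower in Clone 28 and 11 higher and 3 lower in Clone 35. Of all 22326 tested genes, 3781 passed in Clone 28 and 2846 in Clone 35 with library totals.

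The replicate numbers, which mark collections at different times of the same day, also differed. Of the members, 94 passed the test between the 4 numbers (40%, against 37.4% of all genes). The highest mean was over its lowest by a median of 1.19 times among them, and by at most 1.49 times. The mean was highest in number 1 for 30 of the 94, in number 2 for 14, in number 3 for 17 and in number 4 for 33. The means of numbers 3 and 4 together were above those of 1 and 2 for 57.4% of the 235 members, against 50.2% of all genes. The labels give the numbers and no clock time.

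The members with the smallest p-values were *ZNF91*, *ZNF43*, *ZNF492*, *ZNF730* and *ZNF473*. The first 4 lie in the fifth cluster, where 22 of the 34 tested members passed. *ZNF91* averaged 301, 278, 247 and 239 CPM in numbers 1 to 4, with the highest value in number 1 in all 6 groups. *ZNF43* averaged 125, 131, 157 and 159 CPM and was higher in numbers 3 and 4 than in 1 and 2 in each group. *ZNF492* averaged 23.4, 26.1, 32.2 and 34.9 CPM, with number 3 and number 4 above number 1 in each group. *ZNF730* averaged 92.98, 96.02, 109.7 and 114 CPM. *ZNF473*, whose product takes part in the 3′ processing of histone transcripts, averaged 40.8, 47.6, 55.4 and 53.6 CPM, with number 1 lowest in all 6 groups. Their adjusted p-values ran from 3.95e-12 to 4.22e-08 from edgeR's quasi-likelihood test. *ZNF91* and *ZNF43*, which lie in the same cluster, thus stood in opposite order between the numbers.

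**Figure D5:**
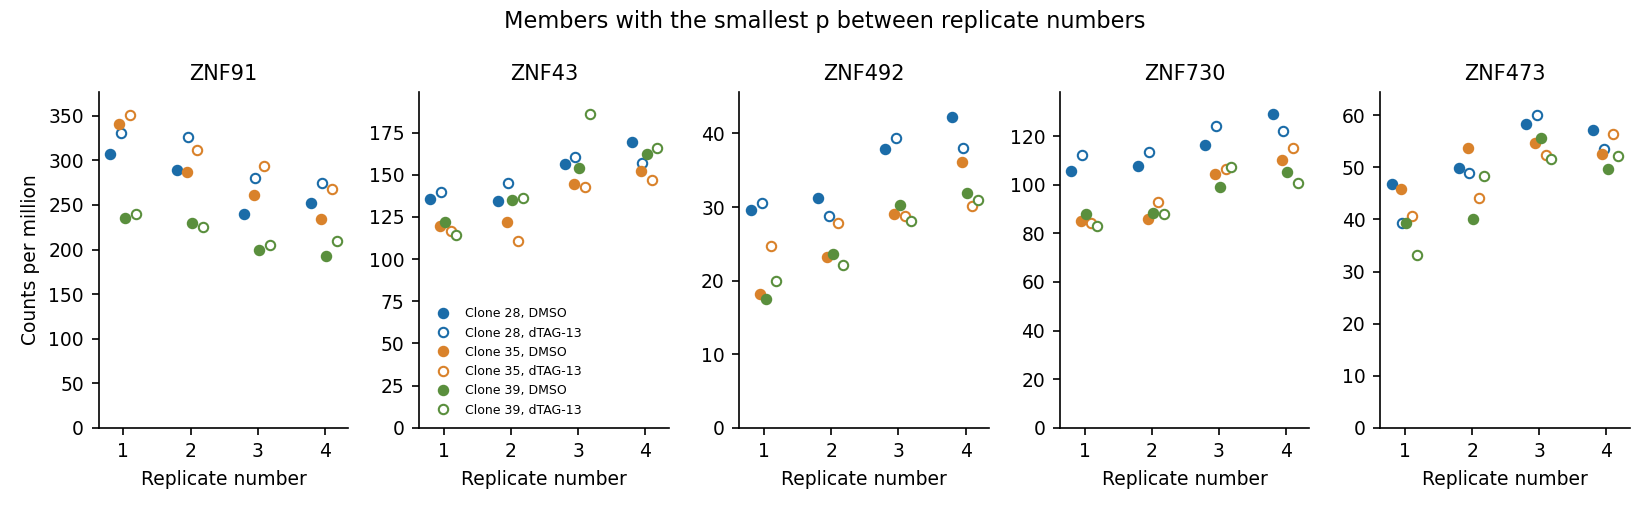
CPM (y axis, from 0) of the 5 members with the smallest p-values between replicate numbers (x axis), with 1 point per library, filled for DMSO and open for dTAG-13 and coloured by clone. ZNF91 is highest in number 1 in all 6 groups, and ZNF43, ZNF492 and ZNF730 are higher in numbers 3 and 4 than in number 1.

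The corepressors that KRAB zinc finger proteins work through were read from a list of 22 genes, all of which were tested. With dTAG-13 none passed in either fit, and TRIM28 itself had a log2 difference of 0.04 (SE 0.0618). In Clone 39, 4 were lower and 1 was higher (22.7% of the list, against 28.1% of all genes). *CHD3*, a chromatin remodeller of the NuRD complex, had -1.26 (SE 0.0878, adjusted p = 2.13e-13 from edgeR). *ZNF274*, which is both a member and on the list and brings SETDB1 to zinc finger genes, had -0.20, *CBX5*, which encodes an HP1 protein, had -0.16, and *PPHLN1*, of the HUSH silencing complex, had -0.19. *HDAC2*, a histone deacetylase, was higher (0.17). In Clone 28, *CHD3* (0.68), *CBX5* (0.37), *HDAC1* (0.23) and *ZNF274* (0.17) were higher (18.2%, against 17.1%). In Clone 35, *CHD3* was higher (0.58) and *CBX5* lower (-0.21), which made 9.09% of the list, against 12.8% of all genes. Between the replicate numbers 10 of the 22 passed (45.5%, against 37.4% of all genes), TRIM28 and SETDB1 among them (adjusted p = 0.00236 and 0.00339 from edgeR).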

How the data were processed

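PRO-seq libraries of 24 samples were analysed, 4 for each of 3 clones and 2 treatments. The authors deposited raw counts of reads per gene, with no normalization; per the labels the reads were trimmed with cutadapt 1.8.1 and aligned to hg38 with Bowtie2 2.4.4, and SAMtools 1.9 was used. The annotation release and strand setting of the counting are not given in the sources used here. Nested genes on opposite strands had a median read density of 0.0532 times that of their host (2535 genes), against 0.88 for the same strand (1141 genes), so strand was kept. Samples were grouped by their labels. Counts were filtered (filterByExpr), scaled by TMM and fitted in edgeR 4.0.16 (R 4.3.3) by the robust quasi-likelihood test with Benjamini-Hochberg adjustment over all 22326 tested genes and a threshold of 0.1. Treatment was tested with clone as covariate. Interaction and clone contrasts came from a fit of the 6 groups, and replicate numbers were tested with clone and treatment as covariates. Same-numbered DMSO and dTAG-13 libraries of a clone were treated and collected together (per the methods), and their deviations correlated at 0.0926 to 0.318 (12 pairs), so a replicate block was fitted as the alternative. DESeq2 1.42.0, other scalings and filters, and leaving out each library or clone were the other alternatives. The 3226718 to 9575803 counts per library set the counting error. Fits were tested on simulated data.

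Members were matched to GENCODE 44 (60463 of 60605 genes), and 107 of the 246 overlap another gene on the same strand. Finger and KRAB patterns were counted in translated GENCODE coding sequences. Promoter sequences are from RefSeq (GRCh38.p14). The members, the corepressor list and the markers were chosen with earlier results of these data known. The members named were the 5 with the smallest p-values on each side for treatment and between numbers, the 3 for the interaction, the largest non-overlapping differences of each clone, and the highest and lowest levels.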

Additional observations from a re-analysis of the deposited data

Results flagged for a closer look

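Among 234 groups of 4 libraries of the 39 named members, 7 held a library whose gap to the nearest of the others, as a share of the range, passed the critical value of Dixon's test, where chance gives about 11.7. *ZNF549* in Clone 35 with dTAG-13 had 35.7 CPM in replicate 1, against 33.3 to 33.6 in the others. *ZNF526*, in the same group, had 17.5 CPM in replicate 4, against 14.4 to 14.6. *ZNF580*, also there, had 55.0 CPM in replicate 1, against 61.3 to 62.4. *ZNF260* in Clone 39 with dTAG-13 had 32.5 CPM in replicate 3, against 25.9 to 26.9. *ZNF528*, in that group, had 41.6 CPM in replicate 1, against 36.8 to 37.6. *ZNF254* in Clone 39 with DMSO had 251 CPM in replicate 1, against 227 to 231. *ZNF114* in Clone 28 with dTAG-13 had 6.56 CPM in replicate 4, against 8.78 to 9.14.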

How the results depend on the processing

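No named member that passed in a reported comparison changed its direction in that comparison under the alternatives listed here. Values that did not pass with all clones did. The dTAG-13 differences of *ZNF175* (0.13) and *ZNF841* (0.18) were -0.13 and -0.04 in Clone 39 alone, and that of *ZNF649* (0.12) was -0.01 in Clone 35 alone. With the block, *ZNF175* and *ZNF841* passed when Clone 39 was left out (adjusted p = 0.00765 and 0.00147 from edgeR). *ZNF649* passed when Clone 35 was left out (0.0806). The median of all genes in Clone 39 (0.0026) was -0.0023 with library totals. For dTAG-13, 3 members passed as reported, and 5 passed with library totals in place of TMM, with no filter on low counts and with DESeq2, which all added *ZNF350* and *ZNF432*. With library totals 124 of all 22326 tested genes passed, against 123 as reported. With the replicate block 7 passed, and 6 and 8 when Clone 35 or Clone 39 was left out of it. Without the block 0 passed when Clone 28 or Clone 39 was left out and 0 in Clone 28, Clone 35 or Clone 39 alone. Leaving out 1 library gave 2 to 4 members for dTAG-13, 19 to 32 for Clone 28, 7 to 14 for Clone 35, 31 to 45 for Clone 39, 81 to 92 for the replicate numbers and 0 for the interaction, which also stood at 0 with the block. The block gave 53 members in Clone 28, 31 in Clone 35 and 64 in Clone 39, and a threshold of 0.05 gave 18 in Clone 28 and 8 in Clone 35. Between replicate numbers, 94 members became 58 with DESeq2, 58 in the DMSO libraries and 42 in the dTAG-13 libraries, the last 2 with fewer samples. Shares of all genes are not given here for DESeq2, no filter, the threshold of 0.05, 1 treatment only or fits without 1 library. Those counts of members therefore cannot be set against all genes. The causes of the other shifts were not tested. With no filter, *ZNF260* and *ZNF254* no longer passed in Clone 39 (adjusted p = 0.211 and 0.311, edgeR). Depth limits *ZNF541*, *ZNF579* and *ZNF208*, at median counts of 15, 19 and 20.5.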
